A study of Spodoptera frugiperda with 12 samples.

Results

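Peaks of N6-methyladenosine (m6A) at the 5' end of transcribed loci were described in embryos of *Spodoptera frugiperda*, the fall armyworm, a noctuid moth whose larvae are crop pests. A 5' peak was a called m6A peak of at most 1000 bases whose midpoint lay in the first 10% of its locus, read in the direction of the strand given for the peak. Loci were built from the pooled lists by linking same-strand peaks separated by under 2000 bases, and a locus was used when it was longer than 1000 bases and held a peak in each of the 6 lists. This gave 7655 loci of 17120, with a median length of 4476 bases. Of 331440 peaks in all lists, 33651 were 5' peaks (10.2%), which is 12.7% of the 266007 peaks of at most 1000 bases in these loci. The members were thus chosen by 3 measured values, the position of the peak in its locus, its width below the limit and the presence of the locus in all lists, and these are not findings. For comparison, middle peaks are those with a midpoint between 30% and 70% of the same loci, and 3' peaks those in the last 10%, with the same width limit.

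m6A is a methyl mark that a methyltransferase complex places on adenosines inside messenger RNA, and it is read by proteins that act on the stability, splicing and translation of the transcript. In vertebrates the mark is densest near stop codons and in 3' untranslated regions, whereas in *Drosophila* peaks in the 5' untranslated region are prominent. In insects the earliest embryo depends on RNA laid down by the mother, which is cleared as the embryo's own genome is switched on.

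The design asked how the m6A profile differs between embryos at 2 h and at 24 h after the eggs were laid. All embryos came from 1 laboratory stock reared under the same conditions, many embryos were collected for each time, and no genotype or treatment other than age set the groups apart. Polyadenylated RNA was fragmented and captured with an antibody against m6A in 3 samples per time, and each captured sample has its own deposited peak list. The 6 uncaptured input samples were not analysed here, so a locus end without a peak can also be one without detectable RNA. The labels do not say whether the 3 samples per time stem from separate egg collections, and p-values may therefore reflect technical spread alone. No list duplicated another: at most 409 peaks shared both position and score between any pair of lists.

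A locus is a stretch of neighbouring peaks and not an annotated gene, so its 5' end need not be the start of a transcript. The library kit is not described as marking strand, and the source of the strand given for each peak is not stated, so the 5' direction is that of the peak lists. The lists carry no read counts, so depth is unknown for every value below. Coordinates are 1-based on the lists' own sequence names, for which no source used here gives a build. No genome or annotation of these sequence names was used here, so no base sequence or gene name is given and regions are named by position.

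Most loci used had a 5' peak in some list, and a minority had one in every list. A 5' peak in at least 1 list was found at 6639 loci, and 1961 loci (25.6%) had one in all 6 lists. The next stretch, from 10% to 20% of the locus, held a peak of at most 1000 bases in all 6 lists at 682 loci, and the last 10% at 3714. Of the 1016 loci with no 5' peak, 736 began with a peak longer than 1000 bases, and 280 began with a shorter peak whose midpoint lay beyond the first 10%. By construction every locus begins with a peak of at least 1 list, which raises the count in its first 10%.

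At 2 h, 56.4%, 56.9% and 53.4% of the 7655 loci had a 5' peak in the 3 lists. At 24 h the 3 lists gave 53.0%, 54.2% and 52.9%. The groups overlapped: the lowest 2 h list lay below the highest 24 h list. The 2 h mean was 55.6% ± 1.91 and the 24 h mean 53.3% ± 0.734 (SD, n = 3 each), a difference of -2.23 percentage points that did not pass the test (exact two-sided permutation p = 0.2, where 3 lists against 3 cannot go below 0.1). The size and sign of this difference were not stable. It was -4.24 percentage points with lists of equal length and -4.99 without peaks of 75 bases (exact permutation p = 0.1 each). Those settings take more peaks from the 24 h lists, so a shift toward 2 h is partly built in. It was 5.29 percentage points without the peaks that set an end of their locus, and 2.84 among peaks of at most 200 bases. Both of the latter settings take out a larger share of 2 h than of 24 h peaks, so a shift toward 24 h is partly built in. Peaks that set the first base of their locus were 38.2% of 5' peaks at 2 h and 26.7% at 24 h. Peaks of 200 bases or more were 28.6% and 20.8%.

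The number of 5' peaks overlapped between the times as well. The 2 h lists held 5749, 5832 and 5429 of them, and the 24 h lists 5534, 5645 and 5462. The means were 5670 ± 213 and 5547 ± 92.2 (SD, n = 3 each), and the groups overlapped (exact two-sided permutation p = 0.5). Counting all peaks, the 24 h lists were longer, with 56907, 58161 and 56679 against 53420, 55116 and 51157 at 2 h. The difference in 5' peaks (-123) was -400 with lists of equal length and -423 without 75-base peaks (exact permutation p = 0.1 each). A locus with a 5' peak had 1.33 of them on average at 2 h and 1.36 at 24 h. The peaks were split evenly over the strands, with 16763 on the plus and 16888 on the minus strand. Among the sequences with at least 100 loci used, the mean share of loci with a 5' peak ran from 42.3% on NC_049740.1 to 60.8% on NC_049716.1, given as a description without a test.

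Peaks at the 5' end were the widest of the parts compared. Their mean width over the 6 lists was 144 bases, against 111 bases for middle peaks and 87.9 bases for 3' peaks of the same loci. The 5' peaks were wider than the middle peaks by 32.6 bases and wider than the 3' peaks by 56.1 bases, in 6 of 6 lists each (exact two-sided sign-flip test over 6 lists, smallest possible p 0.03125, p adjusted over 6 comparisons of parts = 0.0375 for both). Along the locus in steps of 10%, mean width was highest in the stretch from 10% to 20%, at 154 bases, and was 101 bases in that from 70% to 80%. The median width was 75 bases at the 5' end and 50 bases in the middle in every list. With loci joined at 500 bases in place of 2000, the difference from the middle was 5.67 bases, still in the same direction.

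Wide peaks, of 200 bases or more, were more frequent at the 5' end than in the middle or at the 3' end. They made up 24.7% of 5' peaks, 13.03% of middle peaks and 7.72% of 3' peaks on average over the 6 lists. In the next step, from 10% to 20% of the locus, they made up 23.3%, a smaller share than in the first 10% in each 2 h list and a larger one in each 24 h list. The difference from the middle was 11.7 percentage points and from the 3' end 17.0, in 6 of 6 lists each (exact sign-flip p = 0.03125 for both, a measure added after the data were seen and not adjusted). Most of it lay in the class from 200 to under 500 bases, with 19.8% of 5' peaks against 7.88% of middle peaks. The class from 500 to 1000 bases held 4.95% of 5' peaks and 5.15% of middle peaks, lower at the 5' end in 4 of 6 lists. The narrowest peaks, of 25 bases, were 23.9% of 5' peaks, 35.3% of middle peaks and 29.2% of 3' peaks.

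Most peaks in these lists are a whole multiple of 25 bases long. Among peaks of 200 bases or more, 62.5% were not such a multiple at the 5' end, 77.2% in the middle and 45.1% at the 3' end. Peaks that are not a multiple of 25 bases may be genomic extents that include introns, which was not tested. Of 5' peaks, 18.8% were not a multiple of 25 bases, against 12.5% of middle and 9.25% of 3' peaks. Among multiples of 25 alone, 11.6% of 5' peaks, 3.40% of middle peaks and 4.73% of 3' peaks had 200 bases or more. The 5' excess was thus present in 6 of 6 lists also within that class, at 8.17 percentage points over the middle (exact sign-flip p = 0.03125).

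**Figure D1:**
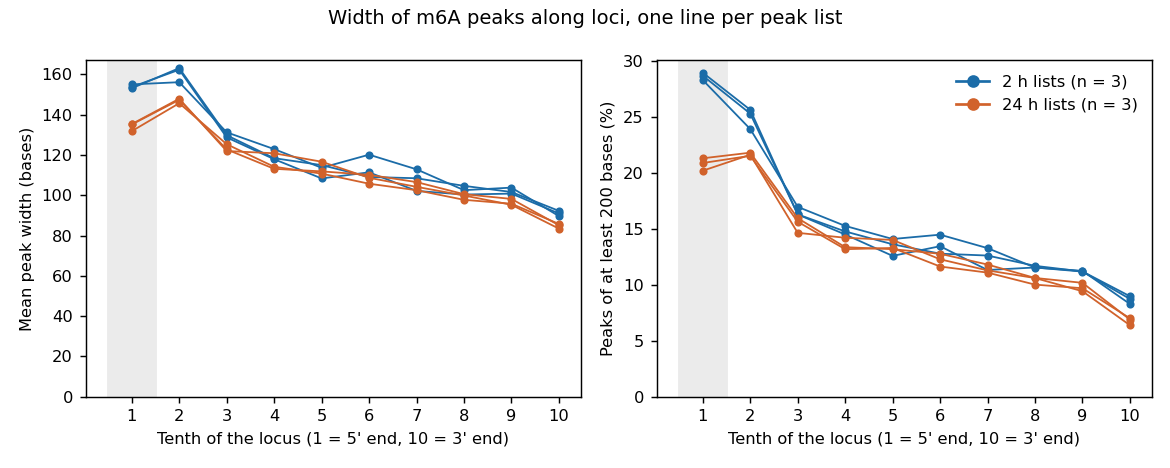
Mean width in bases (left) and share of peaks of at least 200 bases in % (right) in 10 equal steps along 7655 loci, 1 line per peak list, coloured by time, with the first 10% shaded. Wide peaks make up 24.7% in the first 10% and 23.3% in the next step over the lists, the first 10% is higher in the 2 h and the next step in the 24 h lists, and the 2 h lines lie above the 24 h lines in both.

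The 5' peaks of 2 h embryos were wider than those of 24 h embryos in every list. Mean width was 155.0, 153.1 and 153.7 bases in the 2 h lists and 135.3, 135.1 and 131.8 bases in the 24 h lists. No 24 h list reached the lowest 2 h list. The means were 154 ± 0.969 and 134 ± 1.97 bases (SD, n = 3 each), a difference of -19.9 bases at the smallest p this design allows (exact two-sided permutation p = 0.1), so it did not pass a threshold of 0.05. In the middle of the loci the means were 113 and 110 bases and the groups overlapped (exact permutation p = 0.4). At the 3' end they were 91.0 and 84.8 bases, a difference of -6.18 bases without overlap (exact permutation p = 0.1). The excess of 5' over middle width was 41.0 bases at 2 h and 24.1 bases at 24 h, a change of -16.9 bases with no overlap between the groups (exact permutation p = 0.1). The excess over the 3' end changed by -13.7 bases (exact permutation p = 0.1).

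The share of wide peaks was lower at 24 h as well. Peaks of 200 bases or more were 28.3%, 28.7% and 29.0% of 5' peaks in the 2 h lists and 20.2%, 21.3% and 20.9% in the 24 h lists. The means were 28.6% ± 0.329 and 20.8% ± 0.560 (SD, n = 3 each), a difference of -7.85 percentage points without overlap (exact permutation p = 0.1). In numbers, 1624 of these wide 5' peaks per list at 2 h stood against 1154 at 24 h, while the total number of 5' peaks differed by 123. The share of wide peaks was lower at 24 h without overlap in the other parts too, by smaller amounts. It was 13.5% and 12.6% in the middle, a difference of -0.890 points, and 8.67% and 6.77% at the 3' end, a difference of -1.90 points (exact permutation p = 0.1 each). The 5' excess over the middle changed by -6.96 points and that over the 3' end by -5.94 points (exact permutation p = 0.1 each). The class that was larger at 24 h without overlap was that of exactly 75 bases, with 21.6% ± 1.89 (SD, n = 3) of 5' peaks against 14.7% ± 0.817 (SD, n = 3) at 2 h (exact permutation p = 0.1). The share of 75-base peaks was larger at 24 h in the middle and at the 3' end too, at 21.3% against 16.1% and 21.8% against 17.9%. Peaks of 25 bases took 23.8% and 23.9% of 5' peaks at the 2 times.

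The width difference between the times was smaller without the peaks at the very edge of loci. Of all 5' peaks, 10956 (32.6%) set the first base of their locus, 38.2% of those at 2 h and 26.7% of those at 24 h. Without these, mean width was 135.1 bases at 2 h and 130.2 bases at 24 h, the groups overlapped, and the difference was -4.91 bases (exact permutation p = 0.5). The share of wide peaks was then 22.4% and 19.9% (exact permutation p = 0.2). The edge is set by the peak that reaches furthest out, so leaving out edge peaks is itself tied to width. It therefore cannot show that the difference rests on the edge. Between 10% and 20% of the locus, mean width was 160.5 ± 3.82 bases at 2 h and 147.0 ± 1.16 bases at 24 h (SD, n = 3), and wide peaks took 24.95% and 21.7%. With loci joined at 500 bases the 5' difference was -7.32 bases, and among multiples of 25 bases it was -9.76, both without overlap between the groups (exact permutation p = 0.1).

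**Figure D2:**
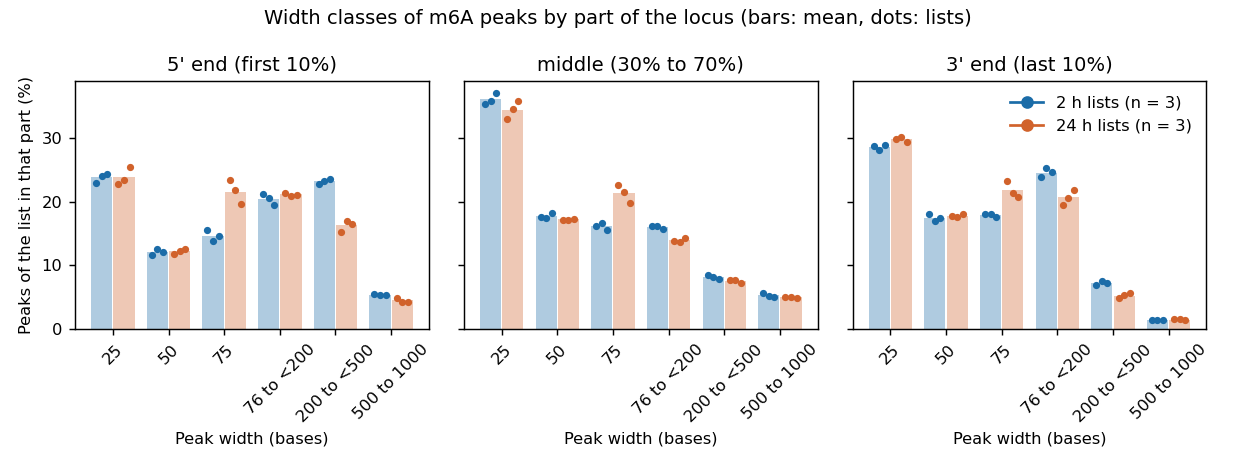
Share of peaks in 6 width classes (bases) at the 5' end, in the middle and at the 3' end of the loci, in % of the list's peaks in that part. Bars are means of 3 lists per time and dots are single lists. At the 5' end the class from 200 to under 500 bases held 23.3% of peaks at 2 h and 16.3% at 24 h, and the 75-base class 14.7% and 21.6%.

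The 1961 loci with a 5' peak in all 6 lists allow the same loci to be followed. At these loci the mean 5' peak width was 173 ± 1.82 bases at 2 h and 146 ± 0.405 bases at 24 h (SD, n = 3). The bases covered by 5' peaks per locus averaged 264, 267 and 259 in the 2 h lists and 226, 226 and 225 in the 24 h lists, with no overlap (difference -37.3 bases, exact permutation p = 0.1). At 1324 loci (67.5%) the mean coverage was smaller at 24 h, at 530 (27.0%) it was larger, and at 107 it was equal. No such count was made for middle or 3' peaks, so it is not shown to be particular to the 5' end. The first peak began on average 63.0 ± 9.09 bases into the locus at 2 h and 84.7 ± 3.17 bases at 24 h (SD, n = 3), and it began exactly at the locus start at 49.0% of loci at 2 h and 27.0% at 24 h (exact permutation p = 0.1 for both). The median start was 25, 0 and 25 bases in the 2 h lists and 25 bases in each 24 h list, with overlapping groups. The locus start is the outermost base over these same lists, so lists with wider peaks can set it more often.

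The start of the first peak was the same base in both lists of a pair at a minority of the 1961 loci. It coincided at 44.5% of these loci on average for pairs of 2 h lists, at 33.6% for pairs of 24 h lists and at 28.7% for pairs across the times. The lowest 2 h pair, at 42.5%, lay above the highest pair across times, at 31.97%, while the 24 h pairs ran from 32.1% to 35.7%. Pairs share lists, so these are given as a description without a test. Most peaks come in steps of 25 bases, and how often starts would coincide by chance was not tested.

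The score of a peak was used only as its rank within its own list, because its scale is not stated. In this percentile 100 is the strongest peak of the list. The median 5' peak stood at the 49.7th, 49.7th and 48.5th percentile in the 2 h lists and at the 48.8th, 49.3rd and 49.5th in the 24 h lists. The groups overlapped, with means of 49.3 ± 0.723 and 49.2 ± 0.370 (SD, n = 3, exact permutation p = 0.8). Against the middle peaks the difference was 0.865 percentile points, higher in 4 of 6 lists, and did not pass the test (exact sign-flip p = 0.25, adjusted p = 0.25). Its sign changed with the processing: it was 3.23 in the stronger 50% of each list and -3.84 with loci joined at 500 bases. Each of these passed in its own direction (exact sign-flip test, adjusted p = 0.0375 and 0.03125). The 5' peaks ranked below the 3' peaks by 11.4 percentile points, in 6 of 6 lists (exact sign-flip test, adjusted p = 0.0375).

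Behind a median rank close to that of middle peaks, narrow 5' peaks ranked lower and wide ones higher than middle peaks of their width. The 5' peaks of 25 bases ranked low, at a median percentile of 25.1, against 36.7 for middle and 44.8 for 3' peaks of that width, lower in 6 of 6 lists each (exact sign-flip p = 0.03125). The wide 5' peaks ranked high, at the 80.4th percentile, against 63.8 for wide middle peaks and 85.4 for wide 3' peaks. The excess of 16.6 percentile points over the middle was seen in 6 of 6 lists (exact sign-flip p = 0.03125), but was -0.112 when only multiples of 25 bases were kept, at 89.1 against 89.2. Among wide peaks that were not multiples of 25 bases it was 14.2 points, at 69.5 against 55.3. Of the 5' peaks, 10.8% were among the strongest 10% of their list, against 7.34% of middle peaks and 13.9% of 3' peaks.

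The score of some peaks was listed as infinite, and these share the top rank. They were 0.938% of 5' peaks, 0.895% of middle peaks and 1.65% of 3' peaks. In the 2 h lists 65, 67 and 34 of the 5' peaks had an infinite score, and in the 24 h lists 53, 51 and 47, with overlapping groups (exact permutation p = 0.7).

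The position of the strongest peak of each locus was compared with where its peaks lay. Among loci with at least 3 peaks of at most 1000 bases in a list, it was a 5' peak at 14.2% of loci, while 11.8% of the peaks of those loci, pooled, were 5' peaks. It was a 3' peak at 34.9%. The pooled share gives more weight to loci with many peaks, so it is not a like measure to a share of loci. Loci with a 5' peak as the strongest averaged 15.2% ± 0.199 in the 2 h and 13.2% ± 0.607 in the 24 h lists (SD, n = 3 each). The groups did not overlap (exact permutation p = 0.1). Where a locus had a 5' peak, the strongest peak was one at 22.6% of loci, and 5' peaks made up 22.1% of its peaks on average, the first value being the higher in the 3 lists of 2 h and the lower in the 3 lists of 24 h. Peaks at both ends were present at 40.2% of loci. A 3' peak was present at 73.9% of loci with a 5' peak and at 69.3% of those without.

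A majority of 5' peaks was found again at the other time. A peak counted as found when a peak of any width on the same strand in a list of the other time shared at least 1 base with it. Of the 5' peaks, 62.1%, 61.6% and 63.1% of those in the 2 h lists were found in a 24 h list on average, and 65.2%, 66.0% and 67.3% of those in the 24 h lists in a 2 h list. The mean of 64.2% exceeded the 53.4% of middle peaks by 10.8 percentage points in 6 of 6 lists (exact sign-flip test, adjusted p = 0.0375). Against the 67.5% of 3' peaks the difference was -3.26 percentage points, lower in 6 of 6 lists (adjusted p = 0.0375, exact sign-flip test). Without the peaks at locus edges it was 2.29 and passed in the opposite direction (adjusted p = 0.0375, exact sign-flip test). All these loci were required to have a peak in all lists, which bears on the level of persistence in every part.

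The persistence of 5' peaks went with their width. Of 5' peaks of 25 bases, 36.9% were found at the other time, against 36.4% in the middle and 46.5% at the 3' end. Of those of 75 bases it was 59.2%, against 58.1% and 68.3%. Of those of 200 bases or more it was 84.5%, against 68.1% in the middle and 84.8% at the 3' end. For these wide peaks the 5' excess over the middle was 16.4 percentage points in 6 of 6 lists (exact sign-flip p = 0.03125), while for 25-base peaks it was 0.502 points in 4 of 6 (exact sign-flip p = 0.156). A wider peak is more easily touched by another peak, and the class of 200 bases or more still holds peaks of differing width.

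**Figure D3:**
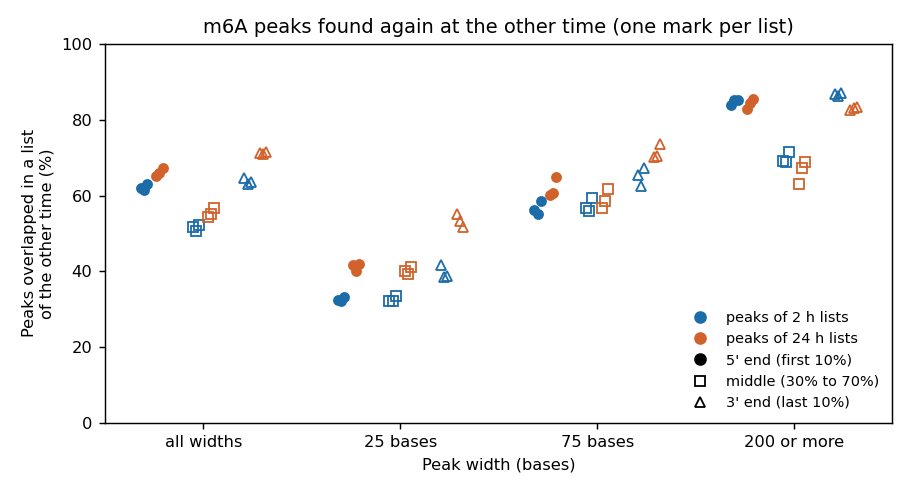
Share of peaks (%) overlapped by at least 1 base in a list of the other time, averaged over its 3 lists, for all widths and for peaks of 25, 75 and at least 200 bases. Each mark is a list, colour gives its time and shape the part of the locus; wide 5' peaks (filled circles) lie near 84.5%, above the 68.1% of the wide middle peaks, while 25-base peaks of the 5' end and the middle lie together.

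Overlap within a time was uneven. A 2 h list recovered on average 73.6% of the 5' peaks of another 2 h list (71.0% to 76.6% over 6 ordered pairs), whereas a 24 h list recovered 62.1% of those of another 24 h list (60.5% to 64.9%). The 24 h lists recovered 62.3% of 2 h peaks and the 2 h lists 66.2% of 24 h peaks. Agreement among 24 h lists was therefore no higher than agreement across times. Overlap within times exceeded that between times by 3.61 percentage points (one-sided exact permutation p = 0.1 over 10 splits, the smallest they allow), against 4.59 in the middle and 3.39 at the 3' end. The excess rested on the 2 h lists: leaving out any 1 of them gave 0.570 to 0.961 points, and leaving out any 1 of the 24 h lists gave 6.37 to 6.67.

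Merging the 5' peaks of all lists that share a base on 1 strand gave 11237 regions. Of these, 2868 (25.5%) had a peak in all 6 lists and 3907 (34.8%) in 1 list alone. The all-list share was 14.2% for middle regions and 26.6% for 3' regions. Of the 4296 regions with a peak in all 2 h lists, 2868 (66.8%) had one in all 24 h lists and 94.7% in at least 1. Of the 3367 with a peak in all 24 h lists, 85.2% had one in all 2 h lists and 95.8% in at least 1.

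**Figure D4:**
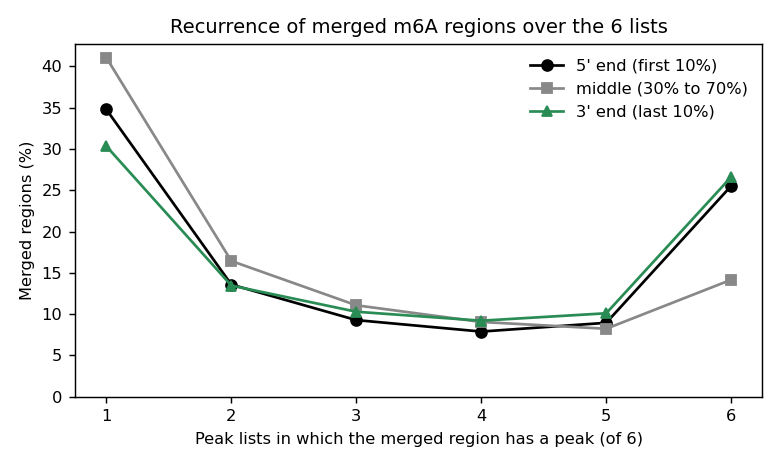
Number of lists (of 6) in which a merged region has a peak, in % of the regions of the 5' end, the middle and the 3' end. The 5' and 3' curves have their high points at 1 list and at 6 lists. The middle curve is highest at 1 list, with 16.4% at 2 lists and 14.2% at 6. The 5' end has 34.8% at 1 list, between the middle and the 3' end, and 25.5% at 6 lists, close to the 3' end.

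Regions present in every list of 1 time and no list of the other were few. At the 5' end, 141 regions (1.25%) were found in all 24 h lists only, beside 1.04 percent of the 86748 merged regions of all peaks in these loci. The opposite pattern, all 2 h lists only, was seen in 226 5' regions (2.01%), beside 1.89 percent of all regions. Both shares were near that background. Counted by locus, the first 10% had a peak in all lists of 24 h only at 123 loci (1.61%), beside 1.00 percent over all 10 steps along the loci, and in those of 2 h only at 167 loci (2.18%), beside 1.12 percent over all steps. Both are above their background, and the steps also differed in how many loci held a peak at all. That share was 54.5% on average in the first 10%, 24.7% to 43.8% in the next 8 steps and 71.8% in the last. In the last step 1.18% of loci had a peak in all lists of 24 h only and 1.23% in those of 2 h only. The exclusive regions were short and weak beside the constant ones. Length is partly set by these classes. Regions in all lists merge peaks of more lists, and a longer region is more easily touched by a peak of the other time. Median length was 250 bases for the regions in all lists, 100 bases for those of 24 h only and 87.5 bases for those of 2 h only, and the median of the smallest percentile over the lists that held them was 56.9, 27.9 and 21.9.

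The regions in all 6 lists with the highest smallest percentile had an infinite score in every list. The first was NC_049714.1:13064749-13065734 on the plus strand, near the start of a locus of 6140 bases. The peaks touching it added up to 961, 1036 and 986 bases in the 2 h lists and 861, 886 and 911 bases in the 24 h lists, so each 24 h list was below each 2 h list. The next was mitochondrial, NC_027836.1:12175-12713 on the minus strand, with 539 bases in each 2 h list and 525 bases in each 24 h list. It was 1 of 3 mitochondrial loci used, which held 12 of the 5' peaks together. NC_049722.1:4609872-4610383 on the minus strand had 512 bases in the 2 h lists and 512, 487 and 487 bases in the 24 h lists.

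The other regions of this kind lay on NC_049731.1, both on the plus strand. At 10305405-10305822 the peaks added up to 418, 418 and 1654 bases at 2 h and 368, 393 and 393 bases at 24 h, where the 1654 bases include a peak that reaches past the region. At 9439319-9439668 they covered 350 bases in each 2 h list and 325 bases in each 24 h list. At all 5 regions no 24 h list had more bases than a 2 h list. The 5 shared the top rank, since their scores were infinite in every list, and ties went to the wider smallest peak. Width thus took part in their choice, and they are no separate measure of the width difference between the times.

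Among the regions of 24 h only, the leading one was NC_049715.1:10352769-10353281 on the minus strand, at the start of a locus of 2957 bases. Its peaks covered 175, 513 and 513 bases and stood at the 96.3rd, 96.7th and 96.5th percentile. The next, NC_049726.1:9573053-9573177 on the minus strand, covered 100, 125 and 100 bases at the 96.2nd, 95.0th and 95.3rd percentile. NC_049728.1:5469729-5469753 on the plus strand was a peak of 25 bases in all 3 lists, at the 95.2nd, 95.4th and 93.4th percentile. NC_049734.1:5124668-5124892 on the minus strand was covered by peaks of 17858 and 17833 bases in the first 2 replicates, which span the locus, and by 225 bases in the third. NC_049716.1:12806747-12806796 on the plus strand had 25, 50 and 25 bases, at the 92.7th to 94.4th percentile. None of these 5 was touched by a peak of a 2 h list, which the choice required.

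Among the regions of 2 h only, NC_049722.1:3279413-3279462 on the minus strand led, at the start of a locus of 286497 bases. Its peaks had 50, 25 and 25 bases, with an infinite score in replicates 1 and 2 and the 98.9th percentile in replicate 3. NC_049721.1:7556284-7556408 on the plus strand had 125, 75 and 50 bases, again infinite in replicates 1 and 2 and at the 98.6th percentile in replicate 3. NC_049726.1:15142887-15142961, NC_049730.1:2856781-2856855 and NC_049717.1:678835-678909 were each 75 bases long, with smallest percentiles of 97.4, 97.2 and 97.0. These strong exclusive regions were narrow, and they stand at the top of sets whose median rank was low.

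A few long loci held many 5' peaks each. At least 2 of them in every list were present at 190 loci, and at least 5 at 19. The richest was NC_049726.1:15140212-15260495 on the plus strand, 120284 bases long, with 18 in each 2 h list and 14, 13 and 12 in the 24 h lists. These were 25 to 200 bases wide, with a median of 50, and their median percentile was 95.7. It also holds the third of the 2 h-only regions above. NC_049712.1:5794523-5838762 on the minus strand had 12, 10 and 13 at 2 h and 10, 12 and 11 at 24 h, at a median percentile of 42.8. NC_049717.1:3719261-3813233, NC_049724.1:15077787-15123342 and NC_049725.1:4234167-4292443, all on the plus strand, had 67 to 72 each over the 6 lists. In such loci the first 10% is itself long, and joining at 2000 bases may link neighbouring genes.

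The 5' peaks varied with the length of the locus. Loci were split by length into 4 classes of 1913 or 1914 loci, from 1002 to 2459 bases, 2460 to 4476, 4477 to 8161 and 8168 to 552992. A 5' peak was present at 48.9%, 57.5%, 58.3% and 53.1% of loci in these classes, on average over the lists, so the share was highest in loci of intermediate length. Loci with a 5' peak had 1.06, 1.17, 1.34 and 1.80 of them. In the shortest class a 5' peak was present at 51.1% of loci at 2 h and 46.7% at 24 h without overlap (exact permutation p = 0.1), and in the second at 59.6% and 55.4% (exact permutation p = 0.1). In the longer 2 classes the groups overlapped, with 59.0% and 57.7% in the third and 52.6% and 53.6% in the fourth (exact permutation p = 0.4 and 0.8).

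The length of the first 10% itself differs between these classes, from 100.2 to 245.9 bases in the shortest class to at least 816.8 bases in the longest. A wide peak that starts at the edge of a short locus can have its midpoint beyond the first 10% and is then not counted. With a fixed window of the first 500 bases in place of the first 10%, a peak was present at 77.6%, 65.1%, 56.7% and 46.1% of loci from the shortest to the longest class. The order by length thus differed with the window used.

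The difference in width between the times was present at every locus length. Peaks of 200 bases or more were 28.5% of 5' peaks at 2 h and 16.4% at 24 h in the shortest class, 33.5% and 24.0% in the second, 29.9% and 22.9% in the third and 24.0% and 19.2% in the longest. The groups did not overlap in any class (exact permutation p = 0.1 in each). These shares include the peaks at locus edges. For middle peaks the same share was 11.1% and 10.6% in the shortest and 15.4% and 14.9% in the longest class, with overlapping groups (exact permutation p = 0.2 and 0.5). In the classes between them it was 11.5% and 10.3% in the second and 13.9% and 12.3% in the third, lower at 24 h without overlap (exact permutation p = 0.1 in each).

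The rank of 5' peaks was lower in longer loci. The median percentile of 5' peaks was 58.6, 54.4, 46.2 and 43.9 from the shortest to the longest class, and that of middle peaks was 61.0, 54.3, 47.3 and 41.5. For 3' peaks it fell too, with 67.6, 65.4, 60.2 and 56.8. In the shortest class the 5' peaks stood at 61.1, 61.3 and 59.8 in the 2 h lists and 55.4, 57.8 and 56.4 in the 24 h lists, lower at 24 h without overlap. In the longest class they stood at 42.2, 43.1 and 42.0 at 2 h and at 45.8, 44.6 and 46.0 at 24 h, higher at 24 h without overlap. The longest class minus the shortest was thus -18.3 points at 2 h and -11.1 points at 24 h, a change of 7.25 points (exact permutation p = 0.1). For middle peaks the same difference was -22.2 and -16.9 points, and for 3' peaks -12.6 and -9.03 points. In the longest class middle peaks also ranked higher at 24 h, by 4.97 points, and 3' peaks by 5.98 points. The similar overall medians of the 2 times at the 5' end therefore combine short loci with lower and long loci with higher ranks at 24 h.

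**Figure D5:**
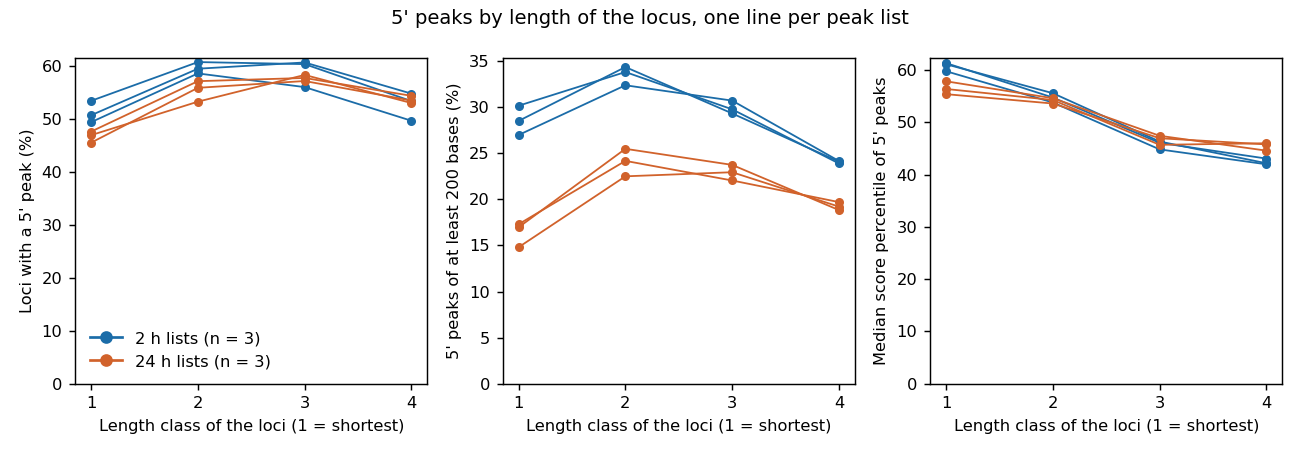
Share of loci with a 5' peak (%), share of 5' peaks of at least 200 bases (%) and median score percentile of 5' peaks, by length class of the loci from shortest to longest, 1 line per list coloured by time. The 2 h lines lie above the 24 h lines for wide peaks in all 4 classes, and for score percentile they lie above in the shortest and below in the longest class.

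Values on either side of the limits of the choice are given as a description. Peaks with a midpoint between 9% and 10% of the locus numbered 2116, with a mean width of 179 bases and a median percentile of 57.2, and those between 10% and 11% numbered 1871, with 177 bases and 54.6. In the first 10% of loci 327 peaks were above 800 and up to 1000 bases wide, with a median percentile of 65.5, and 199 were above 1000 and up to 1200, with 58.1. In all, 668 peaks longer than 1000 bases had their midpoint in the first 10% and were left out. Of loci present in all lists, 124 were above 900 and up to 1000 bases long and 134 were above 1000 and up to 1100.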

How the data were processed

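Per the labels' protocols, polyadenylated RNA of embryos was fragmented, split into m6A capture and input, and sequenced on an Illumina instrument. Per the submitters' processing notes, fastp 0.20.0, HISAT2 2.1.0, Bowtie2 2.2.5 and HOMER were used, with no roles given. No source used here gives the peak caller, its threshold or the genome build. Each deposited list gives, per peak, sequence, start, end, name, score and strand. The score is the authors' own value on an unstated scale. It was turned into a percentile within each list, with ties, infinite ones included, sharing a rank.

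Loci, parts of loci, widths and overlaps were computed with Python 3.11.15, numpy 2.4.6, pandas 2.3.3 and scipy 1.17.1, checked against bedtools 2.31.1 and tested on simulated data, and figures were drawn with matplotlib 3.10.9. Overlap needed 1 base on the same strand. The times were compared with exact two-sided permutation tests (3 lists against 3, smallest p 0.1), and parts of loci with exact two-sided sign-flip tests over 6 lists (smallest p 0.03125), with Benjamini-Hochberg adjustment over 6 comparisons. Members, parts and tests were chosen with earlier results of these data known. The share of peaks of at least 200 bases, the split by multiples of 25 bases, by locus edge and by strand, and the contrasts between length classes were added after the data were seen. Named regions were, per class, the 5 with the highest smallest percentile over the lists that hold them, with ties going to the wider smallest peak. Named loci were the 5 with the most 5' peaks in their poorest list.

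No pairing of the lists by replicate number was seen. Presence of 5' peaks per locus, as deviation from the mean of its time, correlated at -0.000694, 0.00455 and 0.00356 between same-numbered lists. Differently numbered lists gave -0.0142 to 0.0105. Such values cannot show that same-numbered samples were collected apart. Alternatives were the stronger 50% of each list, equal list length, no 75-base peaks, joining at 500 or 10000 bases, the first 20% or first 500 bases, loci over 5000 bases, peaks up to 200 bases, an overlap of 50% of the shorter peak, and each list left out.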

Additional observations from a re-analysis of the deposited data

Results flagged for a closer look

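The share of 5' peaks of at least 200 bases changed with locus length in opposite directions at the 2 times. The longest of 4 length classes of loci had a lower share than the shortest in each 2 h list, by -2.82, -4.42 and -6.26 percentage points, and a higher share in each 24 h list, by 4.40, 1.87 and 2.40 points. The change was 7.39 points (exact permutation p = 0.1, the smallest possible). The stretch counted as the 5' end was 100.2 to 245.9 bases long in the shortest class and at least 816.8 bases in the longest. A wide peak at the edge of a short locus can have its midpoint beyond that stretch and is then not counted. The rule for 5' peaks thus limits the share in the shortest class, so these values cannot show a change of width with locus length. Whether this limit acted equally at both times was not tested.

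For peaks of 75 bases, the share found at the other time was lower at the 5' end than in the middle of loci in each 2 h list, by -0.600 to -0.751 percentage points, and higher in each 24 h list, by 2.14 to 3.40 points. The change was 3.62 points (exact permutation p = 0.1).

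For peaks of at least 200 bases, the share found at the other time was lower at the 5' end than at the 3' end in each 2 h list, by -1.07 to -2.88 points, and higher in each 24 h list, by 0.431 to 2.07 points. The change was 3.15 points (exact permutation p = 0.1). None of these differences passed a threshold of 0.05, and the design could not have let them pass.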

How the results depend on the processing

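Of 379 values recomputed under 21 alternative settings, 275 were classed as unchanged in direction and in their side of the test. For differences between the times and for the overlap excess, the exact tests could not pass in any setting. Only the direction of these values could change, and counts of regions, peaks and loci had no test. Another 48 values, comparisons of parts with 1 list left out, could not pass either. The 275 is therefore partly settled by the design and is no measure of robustness. All 3 width differences by position and time kept their direction under all the settings run, but not their size. Among peaks up to 200 bases the 5' width difference between the times was -0.867 bases (exact permutation p = 0.5), against -19.9 in the main run. That limit itself takes out the peaks over 200 bases. The difference in the share of loci with a 5' peak (-2.23 points) was -4.24 with lists of equal length and -4.99 without 75-base peaks (exact permutation p = 0.1 each). It was 0.0385 in loci over 5000 bases, 2.84 in peaks up to 200 bases, 0.192 in multiples of 25 bases and 5.29 without edge peaks, those that set an end of their locus. The difference in the number of 5' peaks (-123) was -400 with lists of equal length and -423 without 75-base peaks (exact permutation p = 0.1 each). It was 53 with joining at 10000 bases and 63 in the first 20%. In loci over 5000 bases, peaks up to 200 bases, multiples of 25 bases and without edge peaks it was 65, 301, 67.3 and 564. The difference in median percentile between times (-0.123) was 2.79 with lists of equal length, 1.89 without 75-base peaks, 3.35 with joining at 500 bases, 2.32 in loci over 5000 bases, 4.22 in peaks up to 200 bases, 1.30 in multiples of 25 bases, 4.59 without edge peaks and 0.164 on the minus strand, and -0.611 to 0.388 with 1 list left out. The percentile difference from the middle (0.865) passed at 3.23 in the stronger 50% of each list, 5.16 without 75-base peaks and 6.22 in the first 500 bases. It passed in the opposite direction at -3.84 with joining at 500 bases, -5.27 in peaks up to 200 bases and -1.87 in multiples of 25 bases (exact sign-flip test, adjusted p = 0.03125 each). Without edge peaks it was -0.679 and did not pass. For wide peaks the percentile difference from the middle (16.6) was -0.112 in multiples of 25 bases. The difference from the 3' end in the share found at the other time (-3.26) did not pass at -4.69 in the stronger 50%, -1.42 with joining at 10000 bases, -3.11 in the first 20%, -1.70 in the first 500 bases, -5.04 in loci over 5000 bases and -3.39 on the plus strand. It was 0.894 without 75-base peaks, which did not pass. Without edge peaks it was 2.29 and passed in the opposite direction (exact sign-flip test, adjusted p = 0.0375). The 141 regions of 24 h only were 89 in the stronger 50%, 86 without 75-base peaks, 86 with joining at 500 bases and 220 in the first 20%. The 226 of 2 h only were 140 in the stronger 50% and 109 in loci over 5000 bases. The number of 5' peaks was 15815 and of loci used 4698 in the stronger 50%, and 18253 and 3465 in loci over 5000 bases, which keep fewer peaks by construction. Leaving out edge peaks or peaks over 200 bases takes out a larger share of 2 h than of 24 h peaks. Equal list length and leaving out 75-base peaks take more peaks from the 24 h lists. The cause of the other changes was not tested.

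With 1 list left out, 5 lists cannot give a sign-flip p below 0.0625, so no comparison of parts could pass. Then 5' peaks were 28.6 to 33.8 bases wider than middle and 53.3 to 56.8 bases wider than 3' peaks, and ranked -12.4 to -11.5 points against 3' peaks. The share found again differed by 9.42 to 10.6 points from the middle and -4.44 to -2.84 from the 3' end. The share of wide peaks differed by 10.4 to 12.1 and 16.0 to 17.2 points, and the rank of wide peaks from the middle by 15.1 to 17.1. Regions of 24 h only numbered 176 to 291 and of 2 h only 343 to 386. Fewer lists ease the rule for an exclusive region.

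With the replicate block, pairing lists by number, the time differences were the same values (-19.9 bases for width, -7.85 points for wide peaks, -2.23 points for loci, -123 peaks, -0.123 percentile points) with exact p = 0.25, 0.25, 0.25, 0.5 and 1, where 3 pairs cannot go below 0.25, so no call changed.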
